A study of Homo sapiens with 40 samples.

Results

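NRF2 target genes were followed in A549, a long-used human cell line from a lung adenocarcinoma, with and without disruption of SETDB1, a histone methyltransferase that places the repressive mark H3K9me3. The 9 genes were taken by name as well-known targets of NRF2, by a rule that sets no threshold on measured values but was written with earlier results of these data known: AKR1B10, AKR1C1, AKR1C2, AKR1C3, NQO1, GCLM, GCLC, TXNRD1 and SRXN1. All 9 were found among 62486 gene identifiers, and all 9 passed the filter on low counts that left 17767 genes to be tested. Of the 40 samples of the series, the 6 RNA-seq libraries were used here, 3 of control A549 cells (CT) and 3 of A549 cells labelled SETDB1 knockout (KO), made with CRISPR/Cas9 from a plasmid carrying the guide. No drug or oxidant was applied to either group, per the labels. The labels do not say whether the KO cells were 1 clone or a pool, how the control cells were handled, or whether replicates were separate cultures, so p-values measure only the spread between these libraries.

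NRF2, encoded by NFE2L2, is the transcription factor that raises antioxidant and detoxifying enzymes. In unstressed cells the adaptor KEAP1 hands NRF2 to the CUL3 ubiquitin ligase for destruction; when KEAP1 is lost or modified, NRF2 pairs with small MAF proteins and binds antioxidant response elements in the DNA, a site also bound by the repressor BACH1. A549 cells carry an inactivating change in KEAP1 and are widely used as a model of constitutive NRF2 activity.

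Libraries held 18065062 to 48364919 counts, of which mitochondrially encoded genes took 21.0% to 24.0%. Levels below are CPM, a gene's counts brought to a common library size by library totals and by TMM factors of 0.973 to 1.02; CPM is not corrected for transcript length, so levels are compared between groups and not between genes. SETDB1 itself was at 38.6 ± 1.04 CPM in CT and 21.9 ± 1.32 CPM in KO (SD, n = 3 each), so that KO libraries still held 56.8% of the control count. Of 11 lung epithelial markers, KRT7, KRT8 and KRT18 were abundant, while NKX2-1, SFTPB and SFTPC stayed under 1 CPM in every library. Summed over the list, epithelial markers lay between 4566 and 5006 CPM in CT and between 11364 and 12197 CPM in KO. All 8 that were tested were higher in KO at an edgeR adjusted p under 0.05, as were 32.8% of all tested genes. Fibroblast markers summed to 4.81 to 5.02 CPM in CT and 4.98 to 5.46 CPM in KO, with COL1A2 and DCN at 0 counts. Of the 3 tested, 2 were higher and 1 lower at an edgeR adjusted p under 0.05. COL1A1 rose from 3.10 to 3.83 CPM and COL3A1 from 0.320 to 0.873 CPM, while PDGFRA fell from 1.30 to 0.128 CPM. Leukocyte markers summed to 6.03 to 6.73 CPM in CT and 4.76 to 6.33 CPM in KO, with CD3E at 0. Endothelial markers summed to 0.297 to 0.412 CPM in CT and 4.15 to 5.40 CPM in KO, mostly CDH5, which rose (log2 fold change 3.95, edgeR adjusted p 1.5e-14), while KDR, TEK and VWF stayed under 1 CPM. The part of these marker changes in the results below was not tested. In bulk libraries, fewer cells with a transcript and less of it per cell cannot be told apart.

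The promoter sequences of the members are shown first because NRF2 acts through a short DNA element. RefSeq (GRCh38.p14) gave 10 promoter windows for 8 members, each from 250 bases before to 50 bases after a start; AKR1B10 had no entry. The element's core, TGACNNNGC on either strand, was present in 3 of these windows, those of GCLM and TXNRD1, against 13.3% of all 35116 promoter windows of the table. The 29-base stretches around the 4 matches are given with the core in capitals, which reads on the opposite strand in every stretch but the first of TXNRD1. The stretch of GCLM lies at chr1:93909446-93909474 (minus strand), with its core 34 to 26 bases before the start. Those of TXNRD1 lie on the plus strand at chr12:104215670-104215698 and chr12:104215761-104215789 for one start and at chr12:104286920-104286948 for the other.
GCLM: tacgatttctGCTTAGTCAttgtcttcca
TXNRD1, first start, distal: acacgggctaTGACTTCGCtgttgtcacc
TXNRD1, first start, proximal: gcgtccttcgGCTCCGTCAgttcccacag
TXNRD1, second start: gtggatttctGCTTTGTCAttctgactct

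AKR1C1 and AKR1C2 are printed because their upstream sequences are nearly the same and both genes fell in KO cells. The 250 bases before each start aligned with 96.5% identical columns (245 of 254). AKR1C1 and the AKR1C3 window nearest to it shared 72.4%. Capitals mark a looser form of the core, TGANNNNGC on either strand, which includes the strict core and was found in 41.8% of all promoter windows. It was found in 6 of the 10 member windows, those of AKR1C1, AKR1C2, NQO1, GCLM and TXNRD1. The printed 250 bases lie at chr10:4963165-4963414 (plus strand) for AKR1C1 and at chr10:5003858-5004107 (minus strand) for AKR1C2, and the capitals read the same in both.
AKR1C1: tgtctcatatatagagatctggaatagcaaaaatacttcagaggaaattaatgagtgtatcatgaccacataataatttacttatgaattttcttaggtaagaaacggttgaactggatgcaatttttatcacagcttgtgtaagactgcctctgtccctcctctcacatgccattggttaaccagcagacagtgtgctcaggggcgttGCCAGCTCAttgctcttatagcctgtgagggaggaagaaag
AKR1C2: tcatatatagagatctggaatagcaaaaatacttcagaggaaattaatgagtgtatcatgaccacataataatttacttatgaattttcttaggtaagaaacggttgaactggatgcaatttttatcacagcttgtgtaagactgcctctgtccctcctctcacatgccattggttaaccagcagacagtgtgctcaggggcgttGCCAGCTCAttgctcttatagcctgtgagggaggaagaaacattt

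In KO cells, 7 of the 9 NRF2 target genes were lower than in CT and 2 were higher, at an adjusted p under 0.05 in edgeR's quasi-likelihood test with Benjamini-Hochberg adjustment over all 17767 genes. In the same test 30.0% of all tested genes were lower and 32.8% higher, 62.8% in either direction. AKR1C1, GCLM and AKR1C2 were at least 2-fold lower, a change seen in 4.85% of all tested genes. The median log2 fold change was -0.87 over the 9 members and 0.0038 over all tested genes. For the 7 lower genes, every KO library lay below every CT library, as it did for 31.7% of tested genes; the groups did not overlap in either direction for 65.8%. TXNRD1 was the 1 member with every KO library above every CT library. SRXN1, the other higher member, had overlapping groups and few counts, and its call was lost under several other settings.

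**Figure D1:**
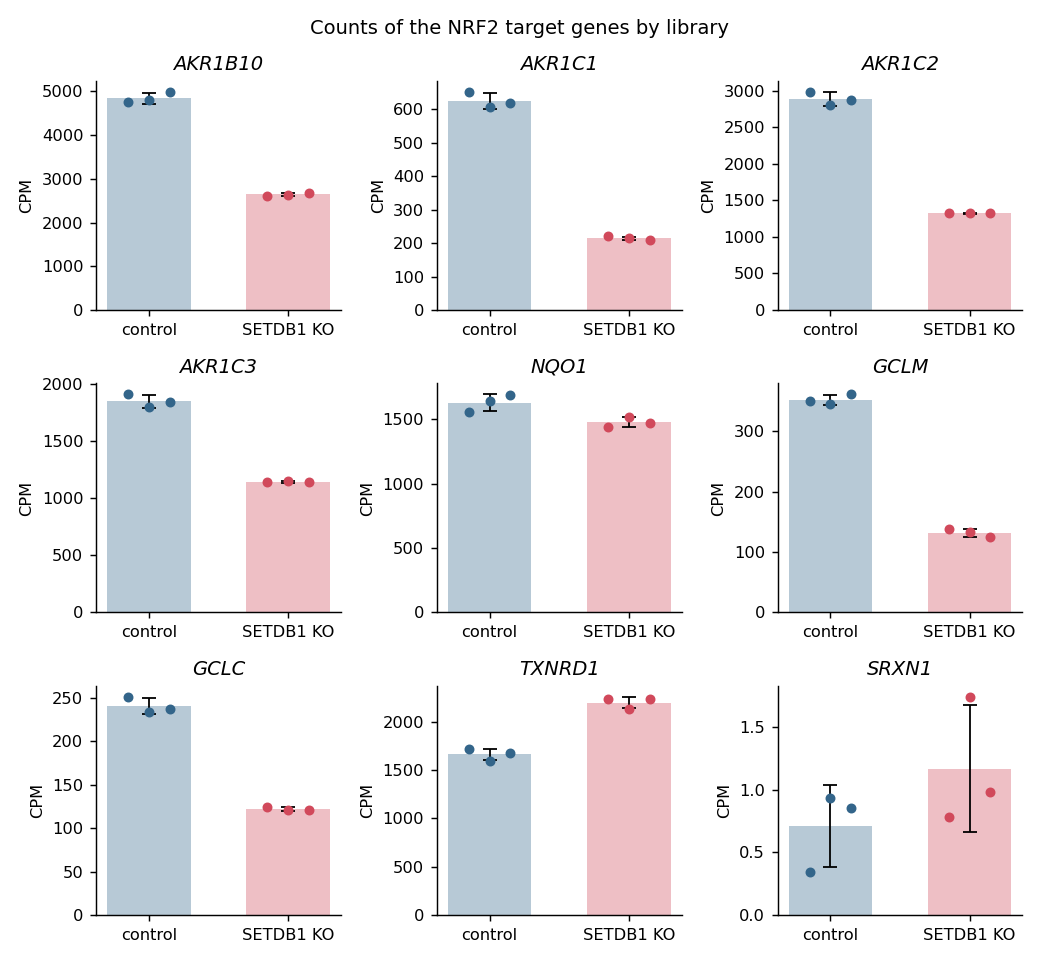
CPM of each NRF2 target gene in the 3 control and 3 SETDB1 KO libraries (points), with the mean (bar, axis from 0) and SD (error bar); the vertical scale differs between panels. The KO points lie below all control points for the 4 aldo-keto reductases, NQO1, GCLM and GCLC, above them for TXNRD1, and for SRXN1 1 KO point lies within the control range and the others above it.

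The 4 aldo-keto reductases, enzymes that reduce aldehydes and ketones with NADPH, all fell. AKR1B10, which reduces aldehydes and retinal, was at 4752, 4796 and 4986 CPM in the CT libraries and at 2616, 2629 and 2683 CPM in the KO libraries. The groups stood far apart relative to their spread, and the KO level was 54.5% of the CT level (log2 fold change -0.87, SE 0.040, edgeR adjusted p 4.6e-17). AKR1C1, which inactivates progesterone, was at 652, 606 and 620 CPM in CT and at 220, 214 and 210 CPM in KO. This was the largest fall among the members, to 34.3% of the CT level (log2 fold change -1.54, SE 0.042, edgeR adjusted p 3.6e-22). AKR1C2, which inactivates dihydrotestosterone, was at 2981, 2796 and 2869 CPM in CT and at 1331, 1319 and 1323 CPM in KO. Its KO level was 46.0% of the CT level (log2 fold change -1.12, SE 0.040, edgeR adjusted p 1.7e-19). AKR1C3, which makes testosterone and prostaglandin F, was at 1910, 1797 and 1845 CPM in CT and at 1140, 1156 and 1141 CPM in KO. It kept the largest share among the 4, 61.9% of the CT level (log2 fold change -0.69, SE 0.040, edgeR adjusted p 9.1e-15).

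These enzymes are close paralogs, and how the counting treated reads shared between them is not stated, so each value alone is uncertain. Counts of AKR1C1, AKR1C2 and AKR1C3 were therefore also summed, which does not depend on how counted reads were divided among them. Shared reads that the counting may have dropped would be missing from the sum as well. The sum was 5359 ± 174 CPM in CT and 2685 ± 9.04 CPM in KO (SD, n = 3 each), so that KO held 50.1% of the CT sum (edgeR adjusted p 3.2e-18). AKR1B10 summed with its neighbour AKR1B15 stood at 54.6% of CT (edgeR adjusted p 4.5e-17).

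NQO1, which reduces quinones with 2 electrons and is the most used reporter of NRF2 activity, changed little. Its CT libraries were at 1558, 1637 and 1686 CPM and its KO libraries at 1438, 1516 and 1472 CPM. The groups did not overlap, but the highest KO and the lowest CT library were close, and KO stood at 90.7% of CT (log2 fold change -0.14, SE 0.041, edgeR adjusted p 0.0040). Over all alternatives its adjusted p stayed at or under 0.048. The antisense gene NQO1-AS1 overlaps NQO1 in RefSeq; the kit marks strand, but the strand setting of the counting is not stated.

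Both subunits of glutamate-cysteine ligase, the rate-limiting enzyme of glutathione synthesis, fell. GCLM, the modifier subunit that raises the enzyme's efficiency, was at 349.7, 346 and 361 CPM in CT and at 138, 133 and 125 CPM in KO. It stood at 37.5% of the CT level, the second largest fall of the members (log2 fold change -1.42, SE 0.044, edgeR adjusted p 6.7e-21). GCLC, the catalytic subunit, was at 251, 234 and 238 CPM in CT and at 125, 121 and 121 CPM in KO. This was 50.7% of the CT level (log2 fold change -0.98, SE 0.043, edgeR adjusted p 2.0e-17). GCLC overlaps GCLC-AS1, which was at 2.63 ± 0.31 CPM in CT and 0.859 ± 0.042 CPM in KO (SD, n = 3 each), a small number beside the counts of GCLC.

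The members that serve thioredoxin and peroxiredoxins did not fall. TXNRD1, the reductase that recharges cytosolic thioredoxin, was at 1712, 1593 and 1675 CPM in CT and at 2233, 2128 and 2229 CPM in KO. All KO libraries were higher, at 132% of the CT level (log2 fold change 0.40, SE 0.041, edgeR adjusted p 1.5e-09). TXNRD1 lies on chromosome 12, where the median over 854 tested genes was 0.37 on the log2 scale, so its rise exceeded that of its chromosome by 0.034. SRXN1, which repairs overoxidised peroxiredoxins, had 8, 17 and 25 counts in the CT libraries and 18, 86 and 22 counts in the KO libraries, or 0.340 to 0.938 and 0.786 to 1.74 CPM. Its log2 fold change was 0.88 (SE 0.36, edgeR adjusted p 0.045). The call was lost under upper quartile scaling, library size only, DESeq2, limma voom and without CT replicate 1 (adjusted p 0.054 to 0.097). Without KO replicate 2 the log2 fold change was 0.32 with an adjusted p of 0.46, and over all alternatives the adjusted p ranged from 0.0013 to 0.46. SRXN1 overlaps the lncRNA LOC107985423 in RefSeq. How the counting treated overlapping or shared reads is not stated, so the low count of SRXN1 is uncertain. TXNRD1 overlaps TXNRD1-AS1, the pseudogene RPL18AP3 and the protein-coding gene EID3.

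The 9 members together took 1.38%, 1.38% and 1.42% of all counts in the CT libraries and 0.933%, 0.939% and 0.926% in the KO libraries. The difference of 0.460 percentage points was larger than the spread within either group (SD 0.022 and 0.0066). An exact two-sided permutation test gave p = 0.10, the smallest that 3 libraries against 3 allow.

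Ratios of counts within a library do not depend on how libraries are scaled, and were used to ask whether members fell to different extents. A ratio also reflects transcript lengths, so only its change between groups is compared. AKR1C2 to AKR1C1 was 4.57, 4.61 and 4.63 in CT and 6.05, 6.17 and 6.29 in KO, and AKR1C3 to AKR1C1 rose from 2.93 to 2.98 in CT to 5.18 to 5.43 in KO. Both ratios were higher in every KO than in every CT library, but they depend on how reads shared between these paralogs were divided, which is not stated. GCLM to GCLC went from 1.39, 1.48 and 1.52 in CT to 1.11, 1.10 and 1.03 in KO, a change of -0.44 on the log2 scale. The modifier subunit was lower relative to the catalytic subunit in every KO library than in any CT library. NQO1 to GCLM showed the widest divergence of the 7 ratios, from 4.46, 4.73 and 4.67 to 10.4, 11.4 and 11.8, a log2 change of 1.28. AKR1B10 to AKR1C1 changed by 0.67 and AKR1B10 to AKR1B1 by 0.48 on the log2 scale. For these 6 ratios the groups did not overlap, each with the smallest possible exact permutation p of 0.10 (two-sided, 0.117 after Benjamini-Hochberg adjustment over 7 ratios). SRXN1 to TXNRD1 overlapped between groups (exact permutation p = 0.70).

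**Figure D2:**
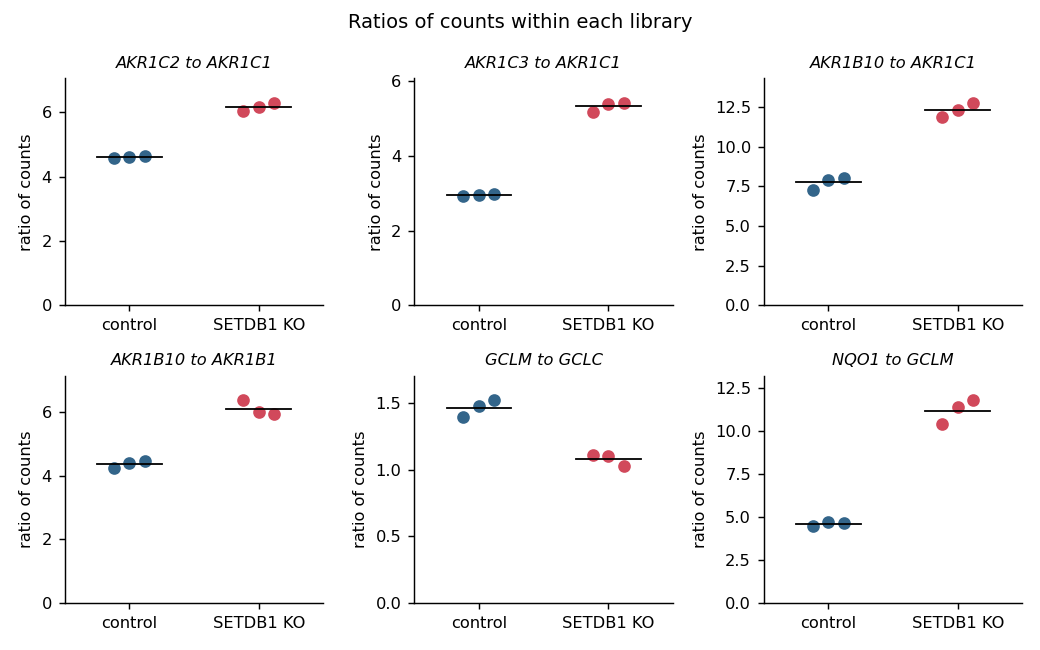
Ratios of raw counts of a pair of genes within each library (points) in control and SETDB1 KO cells; the line is the geometric mean and each axis starts at 0. AKR1C2 to AKR1C1, AKR1C3 to AKR1C1, both AKR1B10 ratios and NQO1 to GCLM are higher in every KO library, and GCLM to GCLC is lower, falling to between 1.03 and 1.11.

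The regulators of the pathway did not move one way. Of 22 listed, 21 were tested, 9 were higher, 5 lower and 7 did not pass, with a median log2 fold change of 0.068. Over all tested genes 32.8% were higher and 30.0% lower, 62.8% in either direction, so these counts do not set the regulators apart. NFE2L2, which encodes NRF2, fell from 126, 117 and 117 CPM in CT to 89.4, 87.9 and 84.3 CPM in KO (log2 fold change -0.46, SE 0.046, edgeR adjusted p 1.2e-09). CUL3, the scaffold of the ligase that marks NRF2 for destruction, fell from 123 ± 1.30 to 72.8 ± 3.67 CPM (log2 fold change -0.75, edgeR adjusted p 4.1e-14). NFE2L2 and CUL3 both lie on chromosome 2, where 72.3% of tested genes were lower in KO and the median log2 fold change was -0.54. NFE2L2 fell less than that median and CUL3 more. Of the 19 regulators tested outside chromosomes 2 and 12, 9 were higher and 3 lower. KEAP1 was at 71.2 ± 3.80 CPM in CT and 69.9 ± 3.70 CPM in KO, with overlapping groups (log2 fold change -0.025, SE 0.052, edgeR adjusted p 0.70). SQSTM1, an autophagy receptor that sequesters KEAP1, was at 459 ± 29.6 and 436 ± 19.7 CPM, also overlapping (edgeR adjusted p 0.16); it passed as lower without CT replicate 1 (0.010) and with upper quartile scaling (0.039).

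BACH1, which represses antioxidant response elements, had the largest change among the regulators. It rose from 31.9, 32.1 and 33.3 CPM in CT to 60.8, 56.1 and 60.6 CPM in KO (log2 fold change 0.86, SE 0.054, edgeR adjusted p 6.0e-14). Chromosome 21, where BACH1 lies, had a median of 0.040. NFE2L1, a relative of NRF2 that controls proteasome genes, rose from 160.2 ± 1.05 to 209.5 ± 7.29 CPM (log2 fold change 0.39, edgeR adjusted p 4.9e-09). Among small MAF proteins, the partners of both NRF2 and BACH1, MAFF rose from 3.13 ± 0.35 to 5.02 ± 0.36 CPM. MAFG was at 87.4 ± 3.60 CPM in CT and 80.2 ± 2.53 CPM in KO, with an edgeR adjusted p of 0.028. That call was lost with library size only (0.10), DESeq2 (0.053) and no filter (0.25), and on leaving out CT replicate 2 (0.13), CT replicate 3 (0.063), KO replicate 1 (0.12) or KO replicate 3 (0.053).

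**Figure D3:**
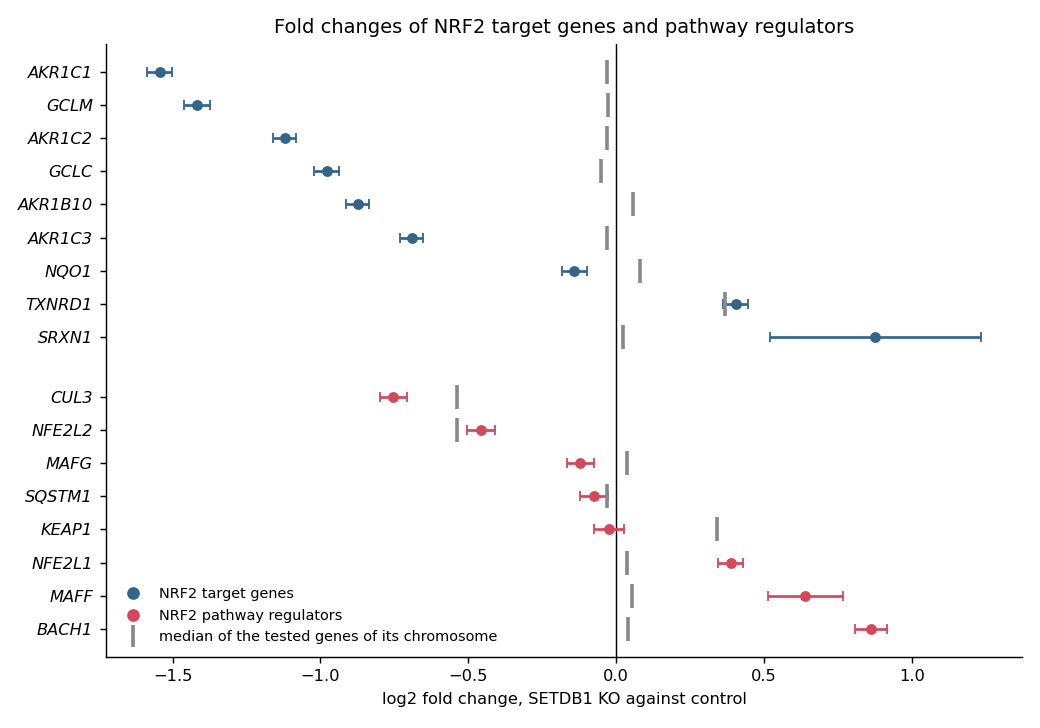
Log2 fold change of the 9 NRF2 target genes and of 8 pathway regulators in SETDB1 KO against control libraries (points, with SE as bars), and the median of the tested genes of each gene's chromosome (grey marks). NFE2L2 and TXNRD1 lie near their chromosome's mark, whereas the falling members on chromosomes 1, 6, 7 and 10 lie far below marks that are close to 0.

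The chromosome medians of the falling members were close to 0. AKR1C1, AKR1C2 and AKR1C3 lie on chromosome 10 (median -0.030), AKR1B10 on chromosome 7 (0.056), GCLM on chromosome 1 (-0.026), GCLC on chromosome 6 (-0.051) and NQO1 on chromosome 16 (0.080). Of the 10 tested genes nearest to AKR1B10 in RefSeq order, 6 were lower, 2 higher and 2 did not pass, and the lower ones included its paralogs AKR1B1 and AKR1B15. Over all tested chromosome 7 genes 25.5% were lower and 37.1% higher. Next to the AKR1C cluster, AKR1E2 was higher in KO (log2 fold change 0.48), and AKR1C4 was at 1.21 ± 0.50 CPM in CT and 1.59 ± 0.18 CPM in KO and did not pass. Beyond AKR1C4, the weakly expressed LINC02561, AKR1C7P and TUBAL3 were lower (log2 fold changes -0.71, -0.62 and -2.60). The 10 tested genes nearest to AKR1C3 include AKR1C1 and AKR1C2. Of these 10, 5 were lower, 3 higher and 2 did not pass. Over all tested chromosome 10 genes 35.2% were lower and 30.8% higher. The 10 genes around GCLM had a median of -0.032 and those around GCLC 0.047. Around TXNRD1 7 of 10 were higher, near the 65.8% of all tested chromosome 12 genes, and around NFE2L2 7 of 10 were lower, near the 72.3% of chromosome 2.

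Among 39 other genes known as NRF2 targets, 23 were lower in KO, 9 higher and 7 did not pass, with a median log2 fold change of -0.26. Over all tested genes 30.0% were lower and 32.8% higher. At least 2-fold changes numbered 5 lower and 3 higher; over all tested genes 4.85% and 9.86% reached these. HMOX1, which degrades heme and is repressed by BACH1, fell from 187, 191 and 194 CPM to 49.6, 50.6 and 50.0 CPM (log2 fold change -1.93, SE 0.044, edgeR adjusted p 7.6e-24). Its KO libraries lay within a range of 1 CPM. PTGR1, a prostaglandin and leukotriene reductase, fell from 199.5 ± 4.69 to 63.9 ± 2.84 CPM (log2 fold change -1.64). NR0B1, an orphan nuclear receptor induced in KEAP1-mutant lung tumours, fell from 37.2 ± 3.66 to 13.5 ± 0.89 CPM (log2 fold change -1.48). CYP4F11, a fatty acid hydroxylase, fell most, from 79.6 ± 1.38 to 2.41 ± 0.13 CPM (log2 fold change -5.02), on chromosome 19 whose median was 0.34; CYP4F genes are close paralogs. These 3 had edgeR adjusted p of 5.6e-22, 1.6e-15 and 3.0e-28.

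Smaller falls were seen in other genes of the list. SLC7A11, the cystine transporter, fell from 591 ± 33.7 to 444 ± 14.8 CPM and GSR, glutathione reductase, from 451 ± 13.2 to 323 ± 3.91 CPM (log2 fold changes -0.41 and -0.48). TXN, the thioredoxin that TXNRD1 recharges, fell from 457 ± 46.7 to 241 ± 5.86 CPM (log2 fold change -0.93, SE 0.058, edgeR adjusted p 3.9e-10), in the opposite direction to TXNRD1. ME1, the malic enzyme that produces NADPH, fell from 124 ± 3.38 to 104 ± 2.40 CPM (log2 fold change -0.26, edgeR adjusted p 1.1e-05). FTH1, the ferritin heavy chain, rose from 38.8, 60.1 and 60.7 CPM to 121, 181 and 157 CPM (log2 fold change 1.53, SE 0.26, edgeR adjusted p 0.0064). FTH1 has many processed pseudogenes and overlaps BEST1, so its count is uncertain. Among the 9 higher genes of the list, against 23 lower, were also GPX2 and ABCC3, both with high counts. GPX2 rose from 360 ± 18.1 to 733 ± 18.6 CPM (log2 fold change 1.02, edgeR adjusted p 7.7e-18). ABCC3 rose from 505 ± 14.0 to 797 ± 21.0 CPM (log2 fold change 0.66, edgeR adjusted p 4.4e-14).

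**Figure D4:**
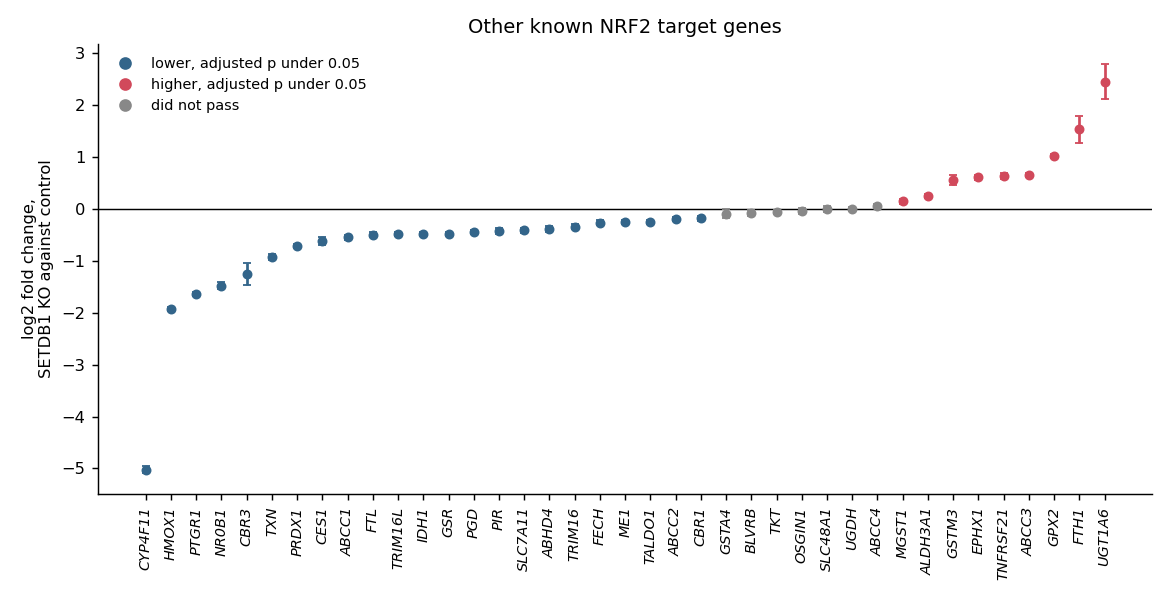
Log2 fold change of 39 other known NRF2 target genes in SETDB1 KO against control libraries, in order of size, with SE as bars (some bars are smaller than the points); blue and red mark genes lower and higher at an edgeR adjusted p under 0.05 and grey those that did not pass. The 23 lower genes outnumber the 9 higher ones, against 30.0% lower and 32.8% higher over all tested genes, and CYP4F11 stands apart at -5.02.

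Of 9 other aldo-keto reductases, 7 were tested, 2 were lower, 2 higher and 3 did not pass, close to the shares over all tested genes (30.0% lower, 32.8% higher). AKR1B1, aldose reductase of the polyol pathway, fell from 1107 ± 18.03 to 434 ± 21.3 CPM (log2 fold change -1.35, SE 0.042, edgeR adjusted p 9.5e-21), and AKR1B15 from 28.8 ± 0.60 to 17.0 ± 0.54 CPM. AKR1E2 rose from 22.4 ± 0.93 to 31.2 ± 0.36 CPM and AKR7A2, an aflatoxin aldehyde reductase, from 27.5 ± 0.97 to 31.5 ± 1.27 CPM. Both lower genes neighbour AKR1B10 on chromosome 7.

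Glutathione, thioredoxin and peroxide enzymes outside the list of NRF2 targets were evenly divided. Of 31 listed, 28 were tested, 11 were lower, 11 higher and 6 did not pass, with a median log2 fold change of -0.045. All tested genes were also near evenly divided (30.0% lower, 32.8% higher), so an even division does not set these enzymes apart. GLRX3, an iron-sulfur glutaredoxin, fell from 102 ± 1.70 to 69.9 ± 3.08 CPM, while GSTK1 and MGST2, both glutathione transferases, rose from 46.8 ± 0.87 to 79.9 ± 0.99 CPM and from 14.95 ± 1.97 to 22.5 ± 1.71 CPM. TXNIP, which binds and inhibits thioredoxin, rose from 10, 6 and 10 counts in CT to 508, 1121 and 525 counts in KO (0.366 ± 0.051 to 22.8 ± 0.61 CPM, log2 fold change 5.94, SE 0.14, edgeR adjusted p 1.1e-23).

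Genes with the most similar pattern were sought for the member that changed most, AKR1C1, and the one that changed least, NQO1, by the Euclidean distance between centred log2 CPM over the 6 libraries. Nearest to AKR1C1 were MTHFD2, ANTXR1 and CLDN2, at distances of 0.067, 0.068 and 0.090; MTHFD2 and ANTXR1 lie on chromosome 2. TBC1D16, FAM104A and ACLY were nearest to NQO1, at distances of 0.024, 0.026 and 0.034. All 6 libraries enter these distances, and over 2 groups they mostly reflect a like fold change.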

How the data were processed

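RNA was sequenced from 3 CT and 3 KO libraries, made with a stranded total RNA kit per the labels' protocols. The deposited table held whole-number counts per gene. The submitters' processing notes name hg19, STAR 2.6.1c and edgeR 3.30.0 without roles; the counter, its strand setting and its treatment of shared reads are not given in the sources used here. Peak lists, domains and compartments were not used here, since no annotation of their build was given.

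Of 62486 identifiers, 65.0% were matched to symbols. Chromosome, gene order and overlaps between genes came from RefSeq on GRCh38.p14, which placed 87.9% of tested genes. This build differs from the hg19 that the submitters' notes name. The counts of all 6 libraries entered a model with genotype alone in edgeR 4.0.16 under R 4.3.3, after filterByExpr and TMM scaling; the robust quasi-likelihood F-test was used, and p-values were adjusted by Benjamini-Hochberg over all tested genes. The SE is the log2 fold change over the square root of F. Exact permutation tests used scipy 1.17.1, with log2 CPM at a prior count of 2 for distances. Fits were tested on simulated data in which few genes changed, equally likely up or down. A setting with as many changed genes as were called here was not simulated.

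Named were all members and SETDB1; NFE2L2, KEAP1, CUL3, SQSTM1, BACH1, MAFG, NFE2L1, HMOX1, SLC7A11, ME1, TXN and GSR; the 3 largest called changes among regulators; and, in other lists, called genes with a mean CPM of at least 5 among the 6 largest changes. Members and lists were chosen with earlier results of these data known. Neighbours were added by place. GPX2 and ABCC3 were added after their values were seen. One gene of the list of other NRF2 targets is not reported here and was left out of that list's counts.

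No pair of libraries agreed within sampling noise (chi-square per degree of freedom 1.65 to 6.81). The main model did not pair libraries by replicate number. Alternatives were upper quartile scaling, library size only, DESeq2 1.42.0, limma voom (limma 3.58.1), no filter, a CPM filter, leaving out mitochondrial genes, a replicate block and leaving out each library. AKR1B10 summed with AKR1B15, and lists without chromosomes 2 and 12, were chosen after seeing the data. Protein identity was not analysed here.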

Additional observations from a re-analysis of the deposited data

How the results depend on the processing

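Of 843 values under alternatives, 804 kept their direction and call or stayed within their limits. These include the ratios and the summed share, whose exact tests cannot give a p under 0.05, so only their direction could change. The 7 lower members were called under every alternative run, and no other scaling moved the median of all genes by more than 0.035. The number of higher members was 1 in place of 2 under upper quartile scaling, library size only, DESeq2, limma voom and the CPM filter. It was 1 to 2 on leaving out a library. In these settings SRXN1 lost its call or was not tested, with log2 fold changes of 0.84, 0.91, 0.77 and 0.91 in the first 4. With chromosomes 2 and 12 left out the number of higher members was also 1, and lower regulators numbered 3. The members' median became -0.94 under the CPM filter, which drops SRXN1. The median of other aldo-keto reductases became 0.24 without a filter and 0.073 under the CPM filter, and -0.062 to 0.16 on leaving out a library. Chromosome medians over genes with a mean CPM of at least 5 were 0.033 for chromosome 7 and -0.091 for chromosome 6. KEAP1 passed in none. Its log2 fold change turned to 0.0040 with library size only, 0.013 without a filter, 0.015 without CT replicate 3 and 0.021 without KO replicate 1. On leaving out a library it ranged from -0.063 to 0.021. The log2 change of the ratio SRXN1 to TXNRD1 ranged from -0.13 to 0.66 on leaving out a library and was -0.13 without CT replicate 1. The causes were not tested beyond the fewer genes or libraries that a setting leaves. Deviations from the group means had correlations of 0.11, 0.064 and 0.047 between same-numbered libraries, and of -0.11 to 0.048 between the others. These values are small and do not settle whether the numbers mark a weak pairing. With the replicate block 11655 genes were called, against 11157 without it. The members then gave 7 lower and 2 higher, and SQSTM1 passed as lower (edgeR adjusted p 0.028). Of calls over all genes, 52.2% were higher, 48.4% under upper quartile scaling and 55.7% with library size only.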

Other observations

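Some genes near an NRF2 target gene or near NFE2L2 had a larger fold change, in either direction, than the gene they lie near. They were chosen after their values were seen. TINAG and FAM83B, tested genes 4 and 5 places after GCLC on chromosome 6, rose from 0.167 ± 0.085 to 2.97 ± 0.088 CPM and from 0.298 ± 0.15 to 3.27 ± 0.21 CPM (SD, n = 3 each), while GCLC fell. SLC52A3, a riboflavin transporter gene next to SRXN1 on chromosome 20, rose from 0.554 ± 0.19 to 13.9 ± 0.57 CPM. SLC41A2, a magnesium transporter gene near TXNRD1, rose from 41.4 ± 3.59 to 92.8 ± 4.97 CPM, or by 1.16 on the log2 scale against 0.37 for its chromosome. Near NFE2L2, PDE11A fell from 3.78 ± 0.13 to 0.366 ± 0.067 CPM and OSBPL6 from 7.39 ± 0.31 to 1.16 ± 0.31 CPM, further than the chromosome 2 median of -0.54. Each of these had an edgeR adjusted p under 0.05.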
